A study of Mus musculus with 20 samples.

Results

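The acute-phase genes *Saa3*, *Hp* and *Lrg1* are 3 of the 24421 genes counted in bone marrow neutrophils from 20 mice, with 1 RNA-seq library per mouse and 5 mice in each of 4 groups. They were found by symbol and were selected on values measured in these libraries, so their levels and differences are given as a description with no test. The groups were WT mice (C57BL/6J) and *Bmal1* Mye-/- mice, each untreated or treated with IMQ. IMQ is imiquimod, a Toll-like receptor agonist, applied as a 5% cream to both ears 3 times per week for 6 weeks at Zeitgeber time 11 to induce features of lupus. All mice were female and 8 to 10 weeks old when treatment began, and they were killed at Zeitgeber times 1 to 4. *Bmal1* Mye-/- mice carry floxed *Bmal1*, a core gene of the circadian clock (symbol *Arntl* in the files), together with Cre at the *Lyz2* locus, which acts in neutrophils, monocytes and macrophages alike. The comparisons ask whether IMQ changed these genes in each genotype and whether the genotypes differed without and with IMQ. WT mice were bought from the Jackson Laboratory, while *Bmal1* Mye-/- mice were bred by crossing a floxed and a Cre strain. Loss of *Bmal1* therefore cannot be told apart from colony, the Cre insertion or the DNA flanking the floxed gene.

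Acute-phase proteins are secreted into plasma during inflammation, mainly by the liver, under the control of IL-6 and IL-1 acting through STAT3, NF-kappaB and C/EBP factors. *Saa3* encodes a serum amyloid A that macrophages, fat and epithelium make outside the liver. *Hp* encodes haptoglobin, which binds free haemoglobin and is also stored in the specific granules that neutrophils form while they mature in the marrow. *Lrg1* encodes leucine-rich alpha-2-glycoprotein 1, which is made by liver and by differentiating granulocytes and modulates TGF-beta signalling through endoglin.

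The depth was 30782166 to 92613500 reads on genes per library (median 66094896). *Lyz2*, where Cre is inserted, was at 11410 ± 593.1 CPM (counts scaled to a common library size with TMM factors, SD, n = 5) in untreated WT and 135 ± 29.8 CPM (SD, n = 5) in the untreated *Bmal1* Mye-/- group, while *Arntl* was at 1.35 ± 0.322 and 0.721 ± 0.240 CPM. With IMQ, *Arntl* was at 1.11 ± 0.474 and 0.702 ± 0.477 CPM (SD, n = 5), and the genotypes overlapped, since *Bmal1* Mye-/- IMQ replicate 1 was at 1.52 CPM, above WT IMQ replicates 1, 2, 4 and 5. Its *Lyz2*, 85.7 CPM, lay with the other IMQ-treated *Bmal1* Mye-/- libraries (58.8 to 127 CPM) and far below IMQ-treated WT (2465 CPM or more). Of 8 neutrophil markers, 7 were counted under their symbols, and their summed level was 36090 to 88860 CPM in every library, the lowest being the *Bmal1* Mye-/- library of IMQ replicate 1. On the first principal component, which held 35.0% of the variance, the IMQ libraries of WT replicate 5 (at -37.1) and *Bmal1* Mye-/- replicate 2 (at -10.7) lay among the untreated libraries (-57.0 to -7.63), and the other IMQ libraries lay from 19.5 to 92.5. Results that rest on these libraries are given with and without them.

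The 3 genes differed widely in level. Per kilobase of transcript, *Hp* in untreated WT was at 2081 ± 154 RPKM, *Lrg1* at 491 ± 16.1 and *Saa3* at 0.147 ± 0.0365 (SD, n = 5 each, with transcripts of 1345, 1408 and 555 bases). *Hp* was therefore among the most abundant transcripts of these cells, ranked 24 of 24421 genes by mean CPM in both untreated groups, 25 in IMQ-treated WT and 27 in IMQ-treated *Bmal1* Mye-/- mice. *Lrg1* ranked 186 in untreated WT and 142 in untreated *Bmal1* Mye-/- mice, and 56 and 54 with IMQ. *Saa3* ranked 13909 and 14867 without IMQ and 8512 and 8619 with it, so that even with IMQ its mean of 7.80 RPKM in WT and 8.58 in *Bmal1* Mye-/- mice was far below the levels of the other genes.

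**Figure D1:**
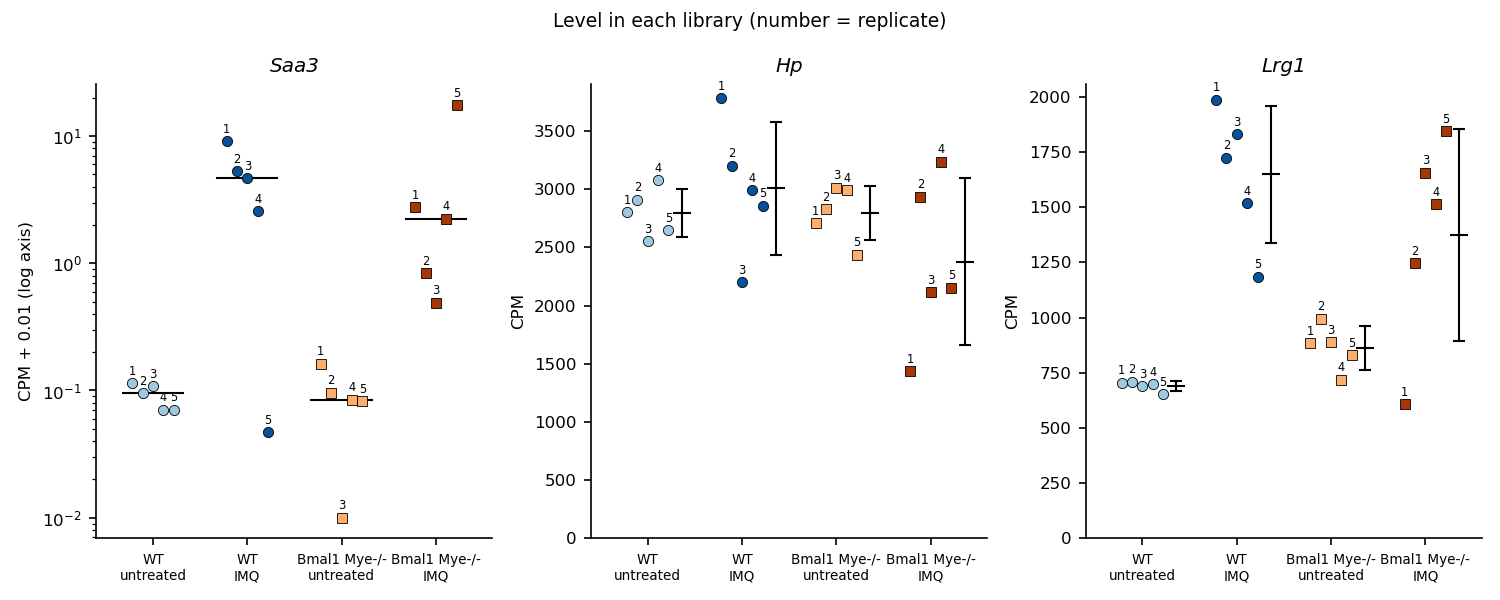
Level of *Saa3*, *Hp* and *Lrg1* in each of the 20 libraries (CPM; numbers are replicates). *Saa3* is on a log axis as CPM + 0.01 with a line at the group median, and *Hp* and *Lrg1* are on linear axes from 0 with the mean and SD (n = 5). *Saa3* stays at or below 0.153 CPM in untreated mice and reaches 17.5 CPM with IMQ. *Lrg1* lies at 653 to 995 CPM in untreated mice and reaches 1987 CPM with IMQ. The group means of *Hp* lie between 2375 CPM (IMQ-treated *Bmal1* Mye-/-) and 3007 CPM (IMQ-treated WT).

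*Saa3* lies on the reverse strand of chromosome 7 (chr7:46711998-46715700, mm10), overlaps no other annotated gene and has the serum amyloid genes *Saa1*, *Saa2* and *Saa4* as neighbours. The bases around a RefSeq transcription start of the gene (250 before to 50 after, written 5′ to 3′ on the strand of the gene, GRCm38) are shown because the gene went from nearly silent to expressed, beside those of its near-silent paralog *Saa1*, and capitals mark a match to the C/EBP motif TTGCNNAA on either strand. *Saa3* is at chr7:46715627-46715926 and *Saa1* at chr7:46742931-46743230, both on the reverse strand.
Saa3: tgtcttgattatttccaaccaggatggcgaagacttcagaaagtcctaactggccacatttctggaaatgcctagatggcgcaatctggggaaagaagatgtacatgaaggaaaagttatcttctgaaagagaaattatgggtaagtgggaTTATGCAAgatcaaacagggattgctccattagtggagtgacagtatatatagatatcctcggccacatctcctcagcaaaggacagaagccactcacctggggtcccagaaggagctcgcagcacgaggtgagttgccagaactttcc
Saa1: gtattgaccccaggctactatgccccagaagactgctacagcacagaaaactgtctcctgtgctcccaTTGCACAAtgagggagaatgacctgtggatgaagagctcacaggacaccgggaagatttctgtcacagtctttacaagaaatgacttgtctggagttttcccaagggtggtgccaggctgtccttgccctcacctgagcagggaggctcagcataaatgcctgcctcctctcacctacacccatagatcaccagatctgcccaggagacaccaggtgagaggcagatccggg
The match begins 99 bases before the start in *Saa3*, on the opposite strand, and 182 bases before it in *Saa1*. This motif occurs in 10.8% of the 32851 promoters of the same length. Neither window holds the E-box CACGTG that BMAL1 binds (in 7.15% of promoters), the STAT motif TTCNNNGAA (8.30%) or the kappa-B motif (8.46%), searched on both strands. The RefSeq extent of *Saa3* reaches chr7:46719615, upstream of its window, and the bases around that end were not searched. That of *Saa1* reaches chr7:46743181, inside its window.

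In untreated mice *Saa3* was barely detected. The 5 untreated WT libraries held 7, 6, 8, 4 and 4 reads, or 0.104, 0.0850, 0.0979, 0.0607 and 0.0606 CPM. The 5 untreated *Bmal1* Mye-/- libraries held 11, 8, 0, 4 and 5 reads, or 0.153, 0.0863, 0, 0.0748 and 0.0729 CPM, and the 0 of the third, the shallowest of all libraries, allows a level of up to 0.0975 CPM by counting error alone. The 2 untreated groups overlapped, with a log2 fold change of 0.05 (standard error 1.15), which is smaller than the spread between mice.

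With IMQ, *Saa3* was far above these levels in 9 of 10 libraries. The 5 IMQ-treated WT libraries were at 9.11, 5.30, 4.65, 2.55 and 0.0372 CPM, from 438, 273, 266, 145 and 2 reads. Replicates 1 to 4 lay well above every untreated library, while replicate 5, 1 of the libraries among the untreated ones on the principal component, was below all the untreated WT libraries. The 5 IMQ-treated *Bmal1* Mye-/- libraries were at 2.75, 0.828, 0.479, 2.23 and 17.5 CPM, from 212, 36, 27, 172 and 1331 reads, all above the untreated libraries of both genotypes. Replicate 5 had the highest level of all 20 libraries and replicates 2 and 3 the lowest of this group.

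The mean of *Saa3* was thus 53.1 times the untreated mean in WT (log2 fold change 5.69, standard error 1.09) and 61.5 times in *Bmal1* Mye-/- mice (5.78, standard error 1.10). Single mice weighed heavily on both. Without WT IMQ replicate 5 the WT ratio was 66.2, and without *Bmal1* Mye-/- IMQ replicate 5 the mean of the other 4 was 1.57 ± 1.09 CPM (SD, n = 4), 20.3 times the untreated mean, with a log2 fold change of 4.20. *Saa3* passed the filter on low counts only through the IMQ groups, so that a large difference was built into its being measured at all. The groups did not overlap in *Bmal1* Mye-/- mice, as was the case, higher with IMQ, for 10.8% of all genes tested, and they overlapped in WT, where this was the case for 3.11%. Because the genes were chosen on such values, nothing is read from these shares.

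Between the IMQ-treated genotypes *Saa3* could not be ordered. The log2 fold change of *Bmal1* Mye-/- against WT was 0.14 (standard error 0.84), with medians of 2.23 and 4.65 CPM, so that the mean and the median differed in direction. It was -1.45 without *Bmal1* Mye-/- IMQ replicate 5, -0.16 without WT IMQ replicate 5 and -1.09 with a block for the replicate number. The difference of the IMQ effects between genotypes was 0.10 on the log2 scale (standard error 1.49) and turned to -1.49 without *Bmal1* Mye-/- IMQ replicate 5.

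The paralogs were nearly absent. Over all 20 libraries *Saa1* had 3 reads, *Saa2* had 2 and *Saa4* had 2, and none was tested. *Saa1* and *Saa2*, the plasma serum amyloids of the liver, had reads only in IMQ-treated mice (1 in WT and 2 in *Bmal1* Mye-/- for *Saa1*, 2 in *Bmal1* Mye-/- for *Saa2*), while both *Saa4* reads were in untreated mice. Reads that fit more than 1 place in the genome were not counted on genes, so reads shared between these paralogs could be missing from all of them. The 6 hepatocyte markers summed to 0.581 to 1.57 CPM in every library, almost all of it *Apoa2*, with *Ttr* and *Apoc3* at 0 in all libraries. The 7 marrow macrophage markers summed to 47.6 to 72.8 CPM in untreated mice, 35.3 to 56.3 in IMQ-treated WT and 30.6 to 85.8 in IMQ-treated *Bmal1* Mye-/- mice. With IMQ the median of these sums went from 52.4 to 42.9 CPM in WT and from 57.8 to 45.5 in *Bmal1* Mye-/- mice. The median log2 fold change of the markers was 1.11 in WT and 0.74 in *Bmal1* Mye-/- mice, so that sums and log2 fold changes differed in direction in both genotypes. Of the markers, 0 of 7 passed the test with IMQ in either genotype. The 6 stromal and adipocyte markers summed to 206 to 990 CPM without IMQ and to 31.1 to 437 with it, and 3 of 6 were lower with IMQ in WT and 4 of 6 in *Bmal1* Mye-/- mice. Of all genes tested, 2.34% were higher and 1.60% lower with IMQ in WT, and 14.4% and 9.04% in *Bmal1* Mye-/- mice. The part of these cell types in the *Saa3* values was not tested. In bulk libraries fewer cells of a type and less RNA per cell cannot be told apart.

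*Lrg1* (chr17:56119678-56122001, reverse strand, mm10) overlaps no other annotated gene. The window around its RefSeq start is shown because its WT groups did not overlap (chr17:56121897-56122196, reverse strand), with the TATAA that begins at base 12 after that start in capitals.
Lrg1: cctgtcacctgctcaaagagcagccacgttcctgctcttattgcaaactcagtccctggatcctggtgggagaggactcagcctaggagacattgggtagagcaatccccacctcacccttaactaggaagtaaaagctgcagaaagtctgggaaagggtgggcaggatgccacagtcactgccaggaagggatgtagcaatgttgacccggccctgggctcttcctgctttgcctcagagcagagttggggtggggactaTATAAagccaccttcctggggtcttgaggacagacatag
TATAA occurs in 24.9% of promoters. This window holds no match to the E-box, STAT, C/EBP or kappa-B motif.

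*Lrg1* was tightly held in untreated WT mice and higher with IMQ in nearly every mouse. The untreated WT libraries were at 705, 710, 691, 699 and 653 CPM (mean 691.5 ± 22.7, SD, n = 5). The IMQ-treated WT libraries were at 1987, 1725, 1832, 1519 and 1185 CPM. Every treated WT mouse was above every untreated one, including replicate 5, the mouse that had almost no *Saa3* and the lowest *Lrg1* of its group. This was the case for 3.11% of all genes tested, and since *Lrg1* was chosen on such values, nothing is read from it. The ratio of means was 2.39 (log2 fold change 1.25, standard error 0.21).

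In *Bmal1* Mye-/- mice the untreated libraries were at 886, 995, 887, 719 and 828 CPM, and the IMQ-treated libraries at 609, 1246, 1657, 1513 and 1845 CPM. Replicates 2 to 5 lay above all untreated libraries, and replicate 1 below all of them. The ratio of means was 1.59 (log2 fold change 0.67, standard error 0.21), or 1.81 and 0.86 without replicate 1, which also had the lowest summed neutrophil markers, the highest summed monocyte markers (2108 CPM, against 625 to 1509 in the other IMQ libraries) and the highest TMM factor (1.38). The part of these in its low value was not tested. Scaled by library size alone, the log2 fold change was 0.75.

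The sign of the genotype difference in *Lrg1* differed without and with IMQ, and both values are a description with no test. Untreated *Bmal1* Mye-/- libraries all lay above the untreated WT libraries, with the lowest *Bmal1* Mye-/- library at 719 CPM and the highest WT library at 710, a log2 fold change of 0.32 (standard error 0.21). Over all genes tested, 1.52% had no overlap in this comparison, from which nothing is read. With IMQ the genotypes overlapped, with a log2 fold change of -0.26 (standard error 0.21) that shrank to -0.07 without *Bmal1* Mye-/- IMQ replicate 1, and 1.07% of all genes had no overlap. The IMQ effect on the log2 scale was smaller by 0.58 (standard error 0.29) in *Bmal1* Mye-/- mice, and the untreated *Bmal1* Mye-/- libraries enter both this value and the untreated comparison. *Bmal1* Mye-/- IMQ replicate 1 enters it too. Without that library the ratio of means in *Bmal1* Mye-/- mice was 1.81 in place of 1.59, against 2.39 in WT.

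*Hp* (chr8:109575128-109579172, reverse strand, mm10) overlaps no other annotated gene. The untreated WT libraries were at 2800, 2909, 2554, 3078 and 2649 CPM and the untreated *Bmal1* Mye-/- libraries at 2707, 2826, 3012, 2993 and 2438 CPM. The IMQ-treated WT libraries were at 3782, 3202, 2202, 2991 and 2858 CPM. The IMQ-treated *Bmal1* Mye-/- libraries were at 1435, 2937, 2113, 3237 and 2155 CPM, and all 4 groups overlapped. With IMQ both the highest and the lowest libraries of all 20 appeared, so the spread grew. The mean went from 2798 to 3007 CPM in WT and from 2795 to 2375 CPM in *Bmal1* Mye-/- mice.

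The log2 fold change of *Hp* with IMQ was 0.10 in WT and -0.23 in *Bmal1* Mye-/- mice (standard error 0.18 each), and that between genotypes was -0.00 without IMQ and -0.34 with IMQ (standard error 0.18 each). The IMQ effects differed by -0.34 (standard error 0.25). Scaled by library size alone, the difference between IMQ-treated genotypes was -0.16, and without *Bmal1* Mye-/- IMQ replicate 1 it was -0.19. *Hp* was low where the neutrophil markers were low: in the 4 IMQ libraries with the lowest *Hp*, the 7 markers summed to 36090, 75800, 56880 and 58840 CPM in rising order of *Hp*, against 79960 to 88860 CPM in the other 6. The part of cell composition or stage in this was not tested.

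**Figure D2:**
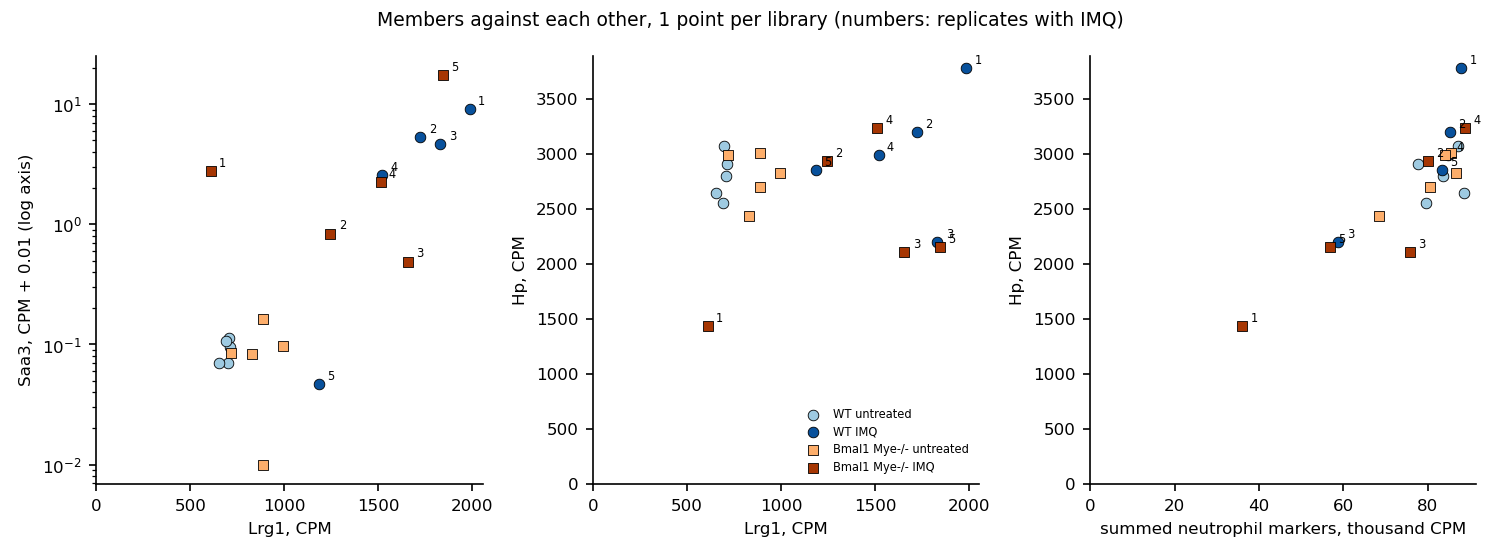
*Saa3* against *Lrg1*, *Hp* against *Lrg1*, and *Hp* against the summed neutrophil markers, with 1 point per library (CPM; *Saa3* as CPM + 0.01 on a log axis; numbers mark the replicates of IMQ-treated mice). With IMQ both *Saa3* and *Lrg1* lie above all untreated libraries, apart from *Bmal1* Mye-/- IMQ replicate 1 (609 CPM of *Lrg1*) and WT IMQ replicate 5 (0.0372 CPM of *Saa3*). Among the IMQ libraries their orders differ, as in *Bmal1* Mye-/- replicate 3 (1657 CPM of *Lrg1*, 0.479 of *Saa3*). *Hp* is lowest where the markers are lowest.

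The 3 genes did not move as a block. Over the 20 libraries, which share their groups, the log2 levels of *Saa3* and *Lrg1* had a Pearson r of 0.74 (Spearman rho 0.62), *Hp* and *Lrg1* 0.20 and *Saa3* and *Hp* -0.16. After group means were subtracted, r was 0.35 for *Saa3* and *Lrg1* (rho 0.32), 0.49 for *Hp* and *Lrg1* (rho 0.21), and -0.04 for *Saa3* and *Hp* (rho -0.15). The order of the 10 IMQ-treated mice shows the same. WT replicate 1 was second in *Saa3* and first in *Hp* and *Lrg1*, while *Bmal1* Mye-/- replicate 5 was first in *Saa3*, second in *Lrg1* and only eighth in *Hp*.

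By likeness over the 20 libraries, *Saa3* was closest to *Fam20b* (a xylose kinase of proteoglycan synthesis, r = 0.94, rho 0.90), *Tjp3* (0.92), *Ces2e* (0.92), *Dnajc10* (0.92) and *Nt5c3* (0.92). Within groups *Fam20b* was again closest (r = 0.87, rho 0.66), followed by *Ces2e*, *Rabl3*, *Tjp3* and *Serpina3n* (0.80 to 0.85). *Fam20b* itself ranged little, from 38.8 to 61.0 CPM, against 0 to 17.5 CPM for *Saa3*. *Lrg1* was closest to *Qsox1*, a secreted sulfhydryl oxidase (r = 0.97, rho 0.98), then *Flot2*, *Asnsd1*, *Gucd1* and *Sri* (0.94 to 0.95), and within groups to *Sri*, which encodes the calcium-binding protein sorcin (0.95), *Wipi1*, *AA467197* and *Anxa1* (0.93 each).

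*Hp* was closest to *Il18bp*, which encodes the binding protein that neutralises IL-18 (r = 0.95, rho 0.93), and within groups the value was 0.96. *Atp6v1g1* (0.94), *Dnajc14* (0.92), *Coro1a* (0.92) and *Crispld2* (0.92) followed over all libraries, and *Atp6v1g1*, *Smim14*, *Pirb* and *Dnajc14* (0.92 to 0.94) within groups. Among the 14029 other tested genes, *Lrg1* ranked 963 in likeness to *Saa3* and *Hp* ranked 8263. Among the listed genes described next, the closest were *Serpina3n* for *Saa3* (r = 0.90, rank 19), the formyl peptide receptor *Fpr2* for *Hp* (0.87, rank 104) and *Serpina3n* for *Lrg1* (0.75, rank 433).

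**Figure D3:**
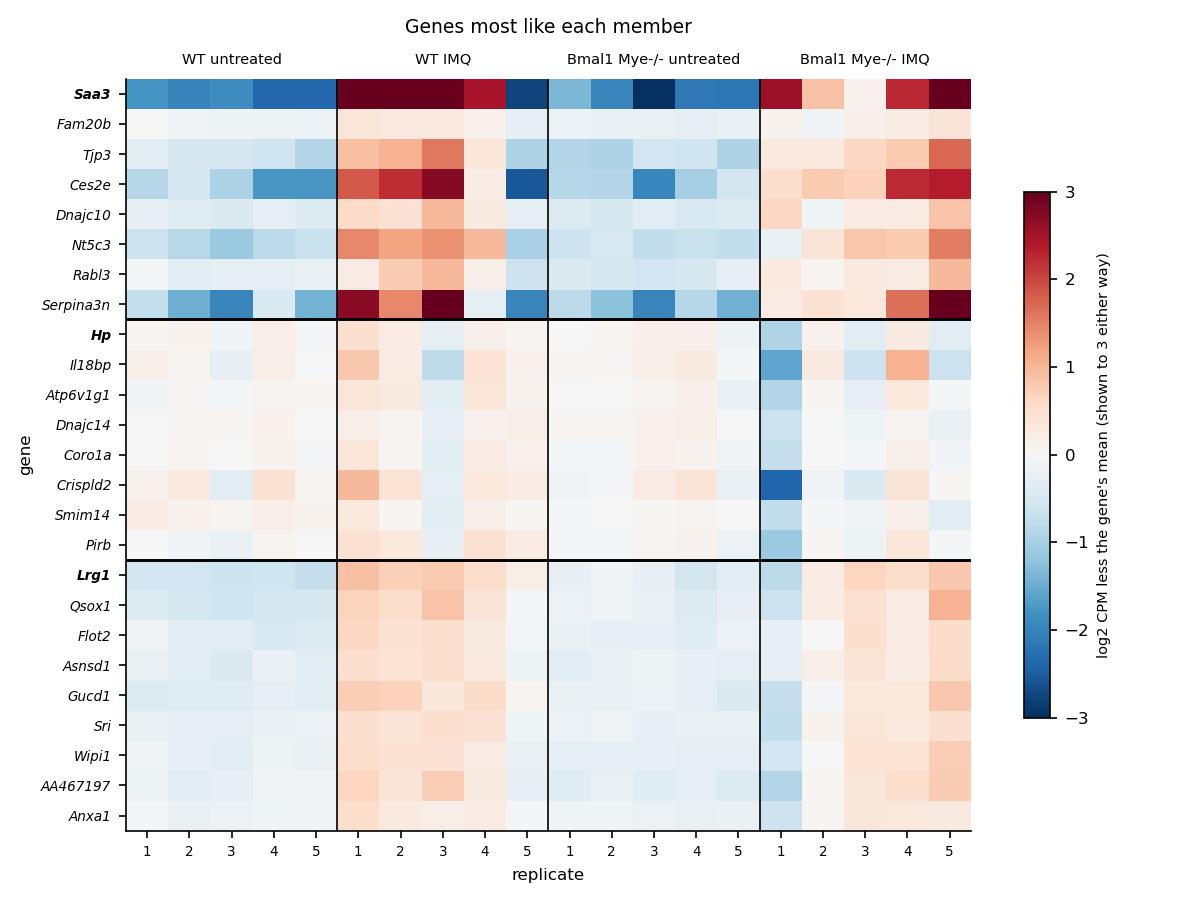
Log2 CPM less the mean of each gene over 20 libraries, for *Saa3*, *Hp* and *Lrg1* (bold) and below each the genes named as most like it over all libraries or within groups (columns are libraries by group and replicate; the colour scale ends at 3 either way). *Saa3* and *Lrg1* are low in the untreated mice and each in 1 treated mouse (*Saa3* in WT replicate 5, *Lrg1* in *Bmal1* Mye-/- replicate 1), and *Hp* is lowest in that *Bmal1* Mye-/- mouse.

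The other genes of the pathway were taken from 5 lists of 98 genes, of which 79 had enough reads to be tested. With p-values from the quasi-likelihood test of edgeR, adjusted by Benjamini-Hochberg over all 14030 genes and a threshold of 0.05, 2 of 79 were higher and 1 lower with IMQ in WT, where the shares of all genes were 2.34% and 1.60%. In *Bmal1* Mye-/- mice 6 of the 79 were higher and 15 lower, against 14.4% and 9.04% of all genes. The median log2 fold change of the 79 was 0.02 in WT and -0.20 in *Bmal1* Mye-/- mice, against 0.03 and 0.02 over all genes. Between genotypes 0 of 79 passed without IMQ and 0 of 79 with IMQ (4 and 17 at an unadjusted p under 0.05; 0 and 0 with DESeq2), where 0.207% and 0.292% of all genes did, and for the difference of the IMQ effects 0 of 79 passed (7 unadjusted; 0 with DESeq2), with 0% of all genes. The *Bmal1* Mye-/- calls are therefore not shown to be particular to that genotype.

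**Figure D4:**
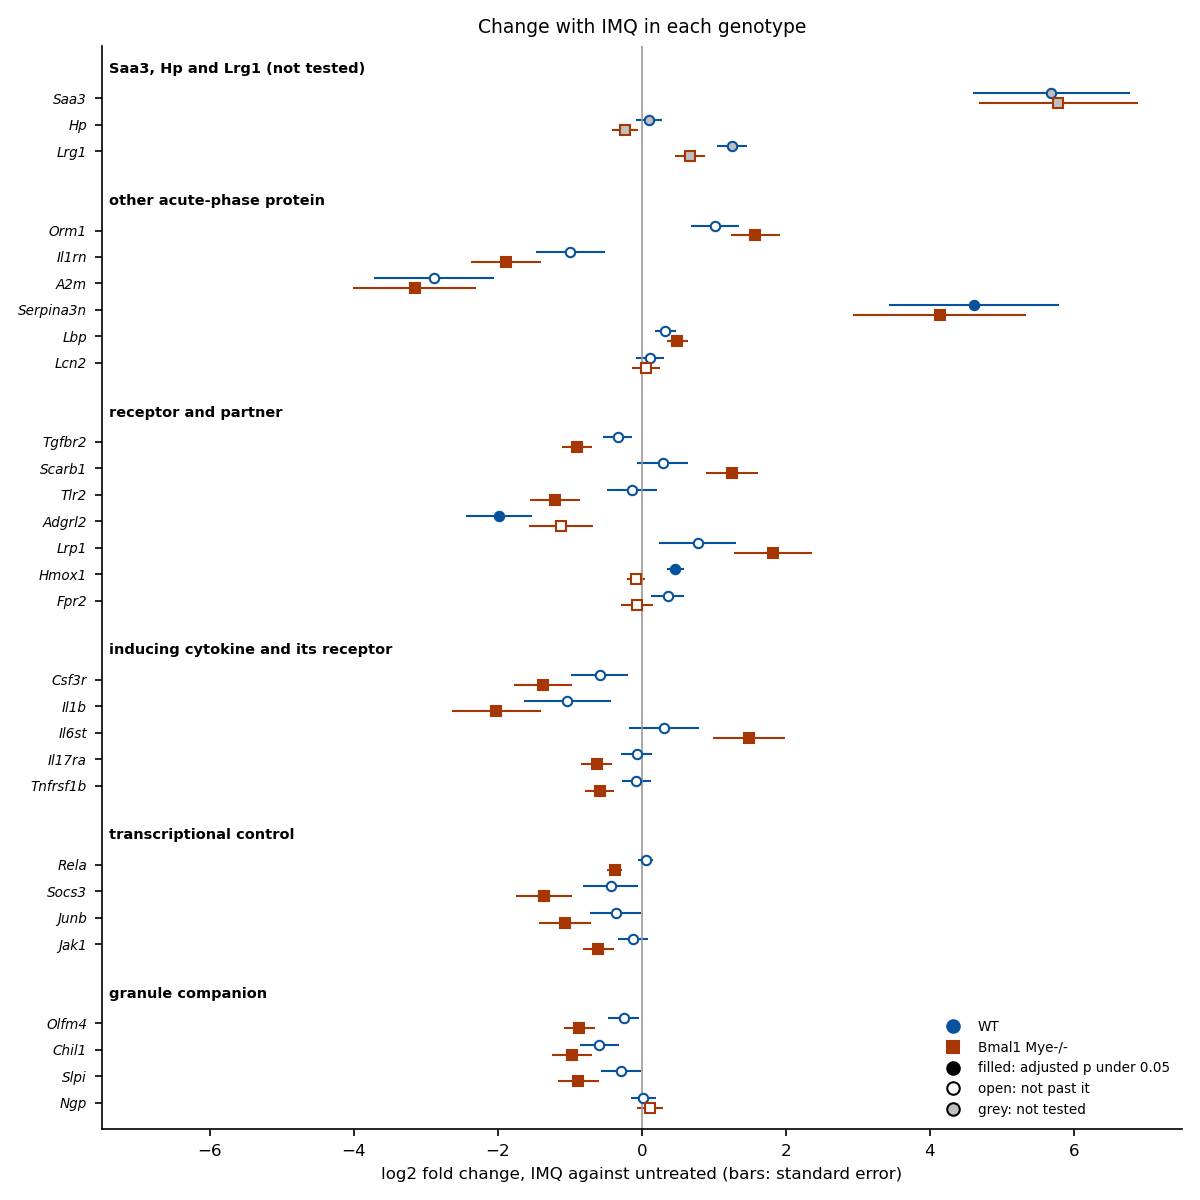
Log2 fold change of IMQ against untreated mice in WT (circles) and *Bmal1* Mye-/- mice (squares) with standard errors, for *Saa3*, *Hp* and *Lrg1* (grey, not tested) and the named genes of 5 lists (filled where the adjusted p is under 0.05). *Serpina3n* is the only listed gene filled in both genotypes and lies at 4.61 and 4.13, with *Saa3* at 5.69 and 5.78. Both genes passed the low-count filter only through the IMQ groups, so a large rise was built into their being measured. The WT call of *Serpina3n* was lost in 10 of 17 alternatives. Most squares of the lower 3 lists lie left of 0.

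Among other acute-phase proteins, 17 of 32 were tested, and 1 was higher in WT, 3 were higher and 2 lower in *Bmal1* Mye-/- mice. *Serpina3n*, a protease inhibitor of the antichymotrypsin family, was closest to *Saa3* in its pattern. It was at 0 to 0.0607 CPM in untreated mice, at 0.790, 0.311, 2.26, 0.0704 and 0 CPM in IMQ-treated WT and at 0.117, 0.138, 0.124, 0.363 and 1.58 CPM in IMQ-treated *Bmal1* Mye-/- mice. WT replicate 5 was again the lowest of the treated mice, and WT replicate 3 was the highest. Like *Saa3*, it passed the filter on low counts only through IMQ libraries (6 of 10, against 0 of 10 untreated), so that a difference was built into its being tested. The log2 fold change was 4.61 (standard error 1.19, edgeR adjusted p = 0.0372) in WT and 4.13 (1.20, edgeR adjusted p = 0.0218) in *Bmal1* Mye-/- mice, and the latter was 2.82 without *Bmal1* Mye-/- IMQ replicate 5 (edgeR adjusted p = 0.0930). In WT the adjusted p was above 0.05 in 10 of 17 alternatives, among them the removal of any untreated replicate.

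*Orm1*, the plasma carrier orosomucoid, rose from 34.6 ± 8.56 to 102.9 ± 40.4 CPM (SD, n = 5) in *Bmal1* Mye-/- mice (log2 fold change 1.58, standard error 0.34, edgeR adjusted p = 0.00707). It kept this call in all 20 alternatives. *Orm1* and *Serpina3n* lie in clusters of closely related genes, so their counts are uncertain where reads fit more than 1 copy. In WT *Orm1* was at 122, 132, 106, 58.1 and 28.2 CPM with IMQ and at 30.6 to 58.6 CPM without, a log2 fold change of 1.02 (edgeR adjusted p = 0.0830) that was 1.23 without WT IMQ replicate 5 (edgeR adjusted p = 0.00764). *Lbp*, the lipopolysaccharide-binding protein, rose by 0.49 (standard error 0.15, edgeR adjusted p = 0.0247) in *Bmal1* Mye-/- mice, and the call was lost without replicate 3 or 5 of the treated or replicate 4 of the untreated *Bmal1* Mye-/- mice. *Il1rn*, the IL-1 receptor antagonist, fell by 1.88 in *Bmal1* Mye-/- mice (standard error 0.49, edgeR adjusted p = 0.0138). Its log2 fold change in WT was -0.99 (edgeR adjusted p = 0.226), and -1.46 without WT IMQ replicate 5 (edgeR adjusted p = 0.0463). *A2m*, the alpha-2-macroglobulin, fell by 3.16 (standard error 0.86, edgeR adjusted p = 0.0164) in *Bmal1* Mye-/- mice from a level of 0.356 to 1.01 CPM. In WT its log2 fold change was -2.89 (edgeR adjusted p = 0.0551, DESeq2 adjusted p = 0.00769), and -4.26 without WT IMQ replicate 5 (edgeR adjusted p = 0.00482). *A2m* passed the filter through the untreated libraries (10 of 10, against 3 of 10 with IMQ), where it is high, with the same limit as for *Serpina3n*. *Lcn2*, the granule siderophore-binding protein lipocalin 2, had the highest level of the list at a mean of 10310 CPM over all libraries and did not pass in WT (log2 fold change 0.12, edgeR adjusted p = 0.770) or *Bmal1* Mye-/- mice (0.06, edgeR adjusted p = 0.842).

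All 16 receptors and partners of these proteins were tested, with 1 higher and 1 lower in WT, and 2 higher and 2 lower in *Bmal1* Mye-/- mice. In WT *Hmox1*, the haem oxygenase that acts after haptoglobin has delivered haemoglobin to macrophages, rose from 67.7 ± 6.70 to 93.6 ± 7.59 CPM (SD, n = 5), with a log2 fold change of 0.47 (standard error 0.12, edgeR adjusted p = 0.0403) that lost its call in 13 of 20 alternatives. *Adgrl2*, a latrophilin reported to bind LRG1, fell by 1.99 in WT (standard error 0.46, edgeR adjusted p = 0.0248) and had a log2 fold change of -1.13 in *Bmal1* Mye-/- mice (edgeR adjusted p = 0.0689). In the latter it was -1.05 with the replicate block and past the threshold (edgeR adjusted p = 0.049), and it was past the threshold with DESeq2 too (adjusted p = 0.0319). Whether the replicate numbers pair these libraries is not known from the labels. The WT call was lost in 6 of 20 alternatives, all of them single libraries left out. In *Bmal1* Mye-/- mice *Tgfbr2*, a receptor of the TGF-beta pathway that LRG1 modulates, fell by 0.90 (standard error 0.21, edgeR adjusted p = 0.00825) and kept its call in all 20 alternatives. *Tlr2*, a receptor reported for serum amyloid A, fell by 1.21 (standard error 0.35, edgeR adjusted p = 0.0223), and lost its call without *Bmal1* Mye-/- replicate 1 or 5 with IMQ or replicate 1 without it. Its mean was 255.1 CPM in untreated *Bmal1* Mye-/- and 162.3 in untreated WT mice, and 110.7 and 147.5 CPM with IMQ.

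In *Bmal1* Mye-/- mice *Lrp1*, a scavenger receptor that takes up haem bound to hemopexin, rose by 1.82 (standard error 0.55, edgeR adjusted p = 0.0252), and *Scarb1*, a lipoprotein receptor that binds serum amyloid A, by 1.25 (standard error 0.36, edgeR adjusted p = 0.0210). Both rested on *Bmal1* Mye-/- IMQ replicate 1, at 332 CPM of *Lrp1* (others 28.3 to 84.9) and 91.4 CPM of *Scarb1*. Without it their log2 fold changes were 0.63 (edgeR adjusted p = 0.188) and 0.75 (edgeR adjusted p = 0.0797). *Fpr2*, the formyl peptide receptor that also binds serum amyloid A, had the highest level of the list at a mean of 578 CPM and did not pass in either genotype (log2 fold changes 0.36 and -0.06).

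Of the cytokines that induce acute-phase genes and their receptors, 14 of 16 were tested, with 0 called in WT and 1 higher and 4 lower in *Bmal1* Mye-/- mice. *Il1b* fell by 2.02 (standard error 0.62, edgeR adjusted p = 0.0275), with a log2 fold change of -1.035 in WT (edgeR adjusted p = 0.329). *Csf3r*, the G-CSF receptor, had the highest level of this list. It fell from 2852 ± 269 to 1099 ± 617 CPM (SD, n = 5) in *Bmal1* Mye-/- mice, by 1.38 on the log2 scale (standard error 0.40, edgeR adjusted p = 0.0223). In WT its log2 fold change was -0.58 (edgeR adjusted p = 0.409). The calls of *Il1b* and *Csf3r* were lost without untreated replicate 4, IMQ replicate 1 or IMQ replicate 5 of the *Bmal1* Mye-/- mice. *Il17ra* fell by 0.63 (edgeR adjusted p = 0.0423) and *Tnfrsf1b*, a TNF receptor, by 0.58 (edgeR adjusted p = 0.0430), and each lost its call in 10 of 20 alternatives, among them the removal of untreated replicate 1, 2, 4 or 5 and of IMQ replicate 3 or 5. The mean of *Tnfrsf1b* was 168.5 CPM in untreated *Bmal1* Mye-/- and 118.1 in untreated WT mice, and 112.5 and 112 CPM with IMQ. *Il6st*, the gp130 chain through which IL-6 signals, rose by 1.49 in *Bmal1* Mye-/- mice (standard error 0.50, edgeR adjusted p = 0.0384), but by 0.61 without *Bmal1* Mye-/- IMQ replicate 1 (edgeR adjusted p = 0.252), which was at 49.97 CPM against 5.30 to 20.8 in the others.

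Of the genes of transcriptional control, 18 of 20 were tested, with 0 called in WT and 4 lower in *Bmal1* Mye-/- mice. *Socs3*, the STAT3-induced inhibitor of cytokine receptors, fell from 172 ± 17.9 to 67.1 ± 37.0 CPM (SD, n = 5), by 1.36 (standard error 0.38, edgeR adjusted p = 0.0197). *Rela*, a subunit of NF-kappaB, fell by 0.38 (edgeR adjusted p = 0.0176), *Junb*, the most abundant of the list, by 1.07 (edgeR adjusted p = 0.0388) and *Jak1* by 0.60 (edgeR adjusted p = 0.0470). Of 20 alternatives, the call was lost in 11 for *Jak1*, 7 for *Junb*, 2 for *Rela* and 1 for *Socs3*. The mean of *Socs3* in WT was 123.7 CPM without and 91.8 with IMQ, a log2 fold change of -0.43 (edgeR adjusted p = 0.542). For *Jak1* and *Junb* the alternatives that lost the call included the removal of IMQ replicate 1, 3 or 5 and the fit without the low-count filter, and for *Jak1* the removal of any untreated replicate.

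All 14 granule companions, made like *Hp* and *Lrg1* during granulocyte maturation, were tested, with 0 called in WT and 3 lower in *Bmal1* Mye-/- mice. These were *Olfm4* (fell by 0.87, edgeR adjusted p = 0.0116), *Chil1* (fell by 0.97, edgeR adjusted p = 0.0196) and *Slpi* (fell by 0.88, edgeR adjusted p = 0.0316). *Slpi* lost its call in 7 of 20 alternatives (without any untreated replicate, IMQ replicate 1 or IMQ replicate 5), *Chil1* in 1 and *Olfm4* in 0. In WT the log2 fold change of *Chil1* was -0.59 (edgeR adjusted p = 0.207), and -0.825 without WT IMQ replicate 5 (edgeR adjusted p = 0.0470). *Ngp*, the most abundant of the list, was at a mean of 28340 CPM and did not pass in either genotype (log2 fold changes 0.02 and 0.11). Of the neutrophil markers 1 of 7, *Csf3r*, was lower with IMQ in *Bmal1* Mye-/- mice and 0 in WT, where 9.04% and 1.60% of all genes were lower. Of 6 monocyte markers 3 were higher in *Bmal1* Mye-/- mice, where 14.4% of all genes were. The part of these cell types in the calls of the lists was not tested.

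Leaving out libraries moved the counts of listed genes. In WT the 3 calls became 10 without IMQ replicate 5 (6 higher, 4 lower), and 0 or 1 without any of the other 9 libraries. In *Bmal1* Mye-/- mice the 21 calls became 9 without untreated replicate 4, and 11 without either IMQ replicate 1 or IMQ replicate 5. With the libraries of WT replicate 5 and *Bmal1* Mye-/- replicate 2 left out together, a choice made after seeing the data, 10 and 26 listed genes were called, and the log2 fold changes of *Saa3* were 6.00 and 6.07 and those of *Lrg1* 1.35 and 0.73. Between IMQ-treated genotypes 14 listed genes were called without WT IMQ replicate 3, in place of 0. The calls over all genes in these refits are not given here, so nothing particular to the lists is read from these counts.

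Of the 29 genes that differed between untreated genotypes, 26 lie on chromosome 7, from 39.5 to 113 Mb, and so do 27 of the 41 that differed with IMQ, from 39.5 to 128 Mb. *Saa3* lies within both stretches, at 1.06 Mb from the nearest of the former, *Fut2*. The floxed gene *Arntl* lies on this chromosome too. Whether this position bears on *Saa3* was not tested, and its log2 fold change between the untreated genotypes was 0.05.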

How the data were processed

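Neutrophils were isolated from bone marrow by magnetic negative selection (purity above 95%), and poly(A) RNA libraries were sequenced with 50 bp reads, 1 library per mouse and 5 mice per group, none pooled. The methods name a NovaSeq and a NextSeq as sequencers, and which library ran on which is not given in the sources used here, so no sequencer batch could be set up. The deposited values are raw counts of reads per gene, made by the authors with no normalization. The submitters' processing notes list bcl2fastq, STAR 2.7.8a, HTSeq 2.0.1 and mm10, while the methods of the paper name TopHat and Partek, and the annotation and strand setting are not given in the sources used here. Summary lines (no feature, ambiguous and not uniquely aligned) were kept out of library sizes, and reads on genes were 37.4% to 42.0% of the reads in a file. A merged table held the same counts and was not used. Groups and replicate numbers come from the labels, and replicates are separate mice. Counts of the 40 within-group pairs differed by a chi-square of 18.2 to 787 per degree of freedom, so each library was counted once. Limits from a count of 0 are 3 reads and cover counting error only.

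Counts were fitted with edgeR 4.0.16 in R 4.3.3 (quasi-likelihood, TMM factors, low-count filter with the 4 groups, 14030 of 24421 genes) in 1 model of the 4 groups, with Benjamini-Hochberg adjustment over all tested genes and a threshold of 0.05. Standard errors come from the F statistic. On counts simulated for IMQ against untreated in WT, with 13799 genes, 66 of 100 genes changed by 1 and 89 of 100 changed by 2 on the log2 scale were recovered with 6 false calls, and 0 were called where none was changed. *Saa3*, *Hp* and *Lrg1* and the 5 lists were chosen with earlier results of these data known. Named are the genes of a list past the threshold in either IMQ comparison, at most 6 by smallest adjusted p, its most abundant gene, *Saa1* and *Saa2*, and the 5 genes of highest Pearson r with each member on log2 CPM (prior count 2), of which 1 is not reported here. Groups that a comparison shares are not independent. To check whether replicate numbers pair the libraries, residuals of same-numbered libraries were correlated across genes. All 5 correlations exceeded 0.1, the criterion set for pairing, for IMQ against untreated *Bmal1* Mye-/- (0.128 to 0.426). In WT 4 of 5 did, and fewer did between genotypes. The labels give only numbers, so pairing is not settled in either genotype. RPKM used the RefSeq-matched transcript of each gene in GENCODE M21. Promoters were taken from RefSeq (GRCm38.p6), where *Saa3* and *Lrg1* matched by symbol. Alternatives were DESeq2 1.42.0, RLE factors, library size alone, no low-count filter, at least 10 counts in each library, counts thinned to the smallest library, limma 3.58.1 on log2(CPM + 0.1), only the 2 groups compared, a replicate block and each library left out.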

Additional observations from a re-analysis of the deposited data

Results flagged for a closer look

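In the 12 combinations of *Saa3*, *Hp* and *Lrg1* with the 4 groups, 1 library stood far from the others of its group. *Saa3* in *Bmal1* Mye-/- IMQ replicate 5 was at 17.5 CPM, against 0.479 to 2.75 CPM in the other 4 mice, and its gap to the nearest of them was 0.867 of the range of the group, above Dixon's critical value of 0.710. Chance flags about 1 in 20 such groups. The value is a description, since the gene was chosen on these levels, and it depends on the scale. On log2 CPM, a scale looked at after seeing the data, the ratio for this library was 0.521, below the critical value, while that of WT IMQ replicate 5, the lowest *Saa3* of its group, was 0.742.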

How the results depend on the processing

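The log2 fold changes of *Hp* and *Lrg1* moved by less than the spread between mice in every alternative run. That of *Saa3* with IMQ in *Bmal1* Mye-/- mice, 5.78, became 3.86 with limma on log2(CPM + 0.1), which understates changes of low genes by construction, and was 4.20 to 6.13 with single libraries left out. *Saa3* was not fitted with a minimum of 10 counts in every library, nor in fits of only the WT or only the untreated libraries, where too few libraries passed the filter. The count of listed genes called with IMQ in WT, 3, became 6 with DESeq2, 1 with the replicate block and 10 with both libraries near the untreated ones left out, and was 0 to 10 with single libraries left out. That in *Bmal1* Mye-/- mice, 21, was 9 to 25 with single libraries left out. Between untreated genotypes 0 became 2 (*Steap4* and *Socs3*, both higher in *Bmal1* Mye-/- mice) when only these groups were fitted, and between IMQ-treated genotypes 0 became 14 at most with single libraries left out (0 to 14). The causes were not tested, and the calls over all genes in these refits are not given beside the counts. With the replicate block 28 listed genes were called in *Bmal1* Mye-/- mice. The block changed no call of the 21 and, of the other genes named, brought *Adgrl2* past the threshold. In WT the same-number correlations were 0.0728 to 0.384, and 4 of 5 exceeded 0.1. In each genotype 6 of 10 libraries were closest to their own number. Between untreated genotypes the correlations were -0.441 to 0.206 and between IMQ-treated genotypes -0.497 to 0.343. The labels give only numbers, so whether same-numbered libraries are paired in either genotype is not known. With the block the log2 fold change of *Saa3* was 5.33 in WT and 5.07 in *Bmal1* Mye-/- mice, and that of *Lrg1* 1.23 and 0.59. The depth of 30782166 reads or more limits *Saa3* in untreated mice, where 0 to 11 reads a library leave its level uncertain, and not *Hp* or *Lrg1*.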
